A study of Homo sapiens with 12 samples.

Results

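The genes examined were 8 cytokine genes, TNF, LTA, LTB, IL32, CSF1, LIF, IL6 and IL1B, out of the 33093 genes kept from the count table. They were chosen by name and all encode signalling proteins that act between cells. RNA had been sequenced from HEK293T cells, a human embryonic kidney line, in 12 libraries, with 3 in each of 4 groups. The groups were WT cells and NFKB1 S80A cells, either left untreated or given 10 ng/ml TNFα for 3 h. In NFKB1 S80A cells the codon for serine 80 of the NF-κB subunit gene NFKB1 had been edited to alanine with CRISPR/Cas9. These cells were derived from single-cell clones, so that effects of the edit and of a clone's own history cannot be told apart in any comparison of the genotypes. The number of clones sequenced is not given in the sources used here, and the replicates were described only as independently generated.

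TNFα binds TNFR1 on the cell surface and frees NF-κB dimers to enter the nucleus, where they bind short κB sites near their target genes. Cytokine genes are well-known NF-κB targets, and TNF is one of them, so that a cell exposed to the ligand can transcribe the ligand's own gene. Many cytokine genes are transcribed mainly in leukocytes and stay near silent in epithelial lines such as HEK293T. The measurements address which cytokine genes were transcribed in these cells at all, which of them rose with TNFα, and whether the NFKB1 S80A cells differed from WT cells in that respect.

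Library totals ran from 15624878 to 20889577 counted reads, and 14383 genes passed the filter on low counts and were tested. A gene with at most 3 counts in every library of a group was taken as at the floor, and 3 counts corresponded to 0.144 to 0.192 CPM in these libraries. Such floors cover counting error only. Of 9 leukocyte markers, 5 had at most 3 counts in every library, with PTPRC, CD3E and MS4A1 at 0 in all 12, and the summed normalised count of the 9 ran from 59.3 to 97.3 per library across the groups. Of these markers 2 were tested and none was called in any comparison. Over all tested genes 0.688% to 7.36% were called in either direction, so that none among 2 is near that share. The summed count of 8 markers of the HEK293 lineage ran from 14495 to 20122. Of these 8, all tested, 1 was called higher with TNFα in NFKB1 S80A cells and none in WT cells. Over all tested genes 0.966% and 0.577% were. Between the genotypes 2 were called higher and 1 lower in NFKB1 S80A cells, both without and with TNFα. Over all tested genes 2.05% were higher and 4.21% lower without TNFα, and 2.92% and 4.44% with it. The marker called lower was the neurofilament gene NEFM. It had a mean normalised count of 1838 ± 133 (SD, n = 3) in untreated WT cells and 4.49 ± 2.38 (n = 3) in untreated NFKB1 S80A cells, and its part in the results below was not tested.

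Of the 8 cytokine genes, 4 passed the filter (TNF, IL32, CSF1 and LIF) and 4 did not (LTA, LTB, IL6 and IL1B). Below detection were 3 genes, LTA, IL6 and IL1B, which had at most 3 counts in each of the 12 libraries. LTB reached 7 counts in a single library. If at most 10 counts in every library is taken as the limit instead, 4 genes were below detection, LTB being the added one.

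**Figure D1:**
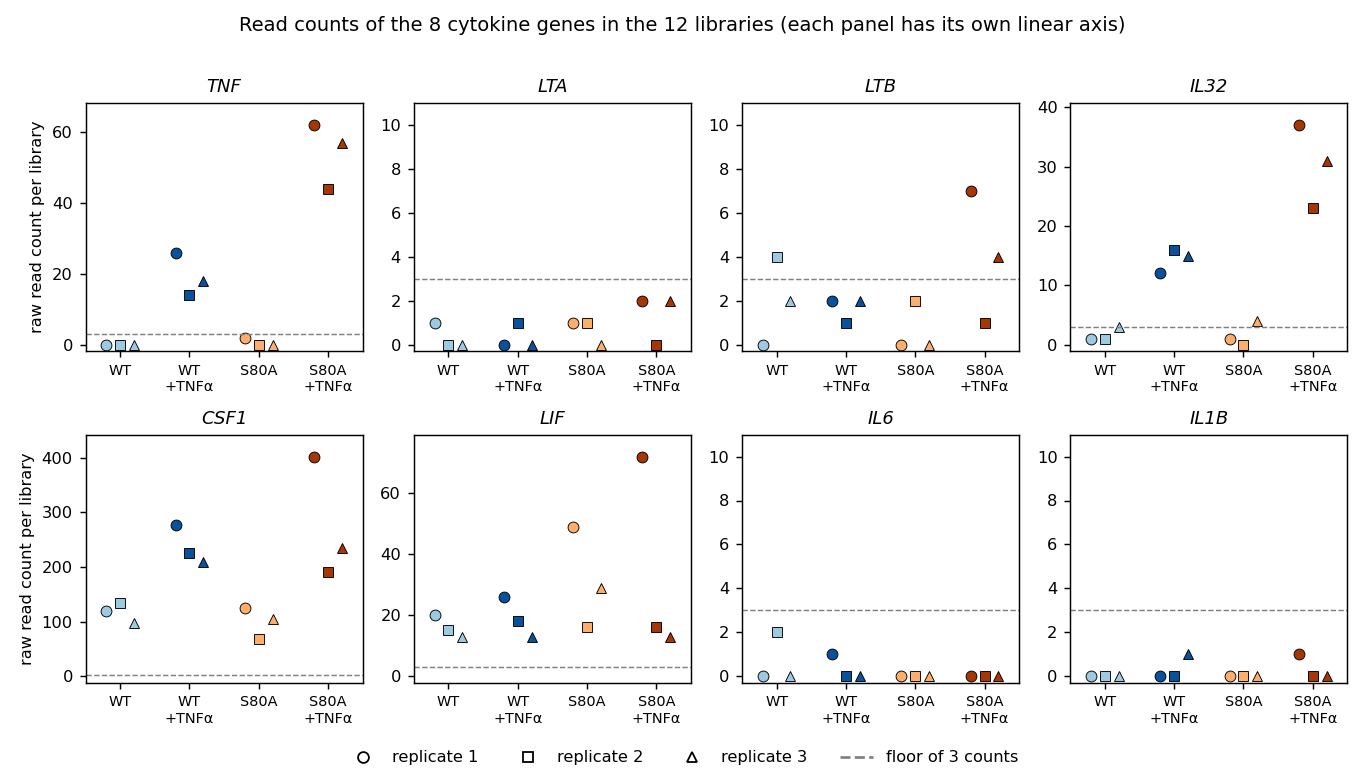
Raw read counts (y axis, linear, a separate scale for each gene) of the 8 cytokine genes in the 4 groups (x axis). Each point is 1 library, the marker gives the replicate number, and the dashed line is the floor of 3 counts. TNF, IL32 and CSF1 were higher in every TNFα-treated library than in every untreated library of the same genotype, LIF showed no such separation, and LTA, IL6 and IL1B stayed under the floor.

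The sequences upstream of the transcript starts are given first. κB matches lay there in TNF and IL32, which rose with TNFα, and in LTA, LTB and IL6, which gave few reads. RefSeq promoter sequences (GRCh38.p14) were at hand for 6 of the 8 genes, and CSF1 and LIF were not among them. The 250 bases before each RefSeq start were searched on both strands for the 10-base κB consensus and for a looser form of it that requires fewer of the leading guanines and admits more bases in the middle. The consensus was found for 4 of the 6 genes, IL32, LTA, LTB and IL6, against 6.28% of 27305 genes with such a window. The looser form was also found for TNF, which gave 5 of 6 genes, against 18.0% of all genes. No match was found in the window of IL1B. For TNF the whole window (chr6:31575315-31575564, plus strand) lies outside the annotated exons of these 8 genes and reads, 5′ to 3′, with the looser match in capitals 92 to 101 bases upstream of the start:
TNF: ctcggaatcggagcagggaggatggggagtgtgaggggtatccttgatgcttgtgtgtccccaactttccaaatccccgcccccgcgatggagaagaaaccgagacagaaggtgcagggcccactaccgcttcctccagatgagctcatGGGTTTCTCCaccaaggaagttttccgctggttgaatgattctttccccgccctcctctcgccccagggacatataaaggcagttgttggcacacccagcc
For the other genes the window runs into exons of alternative transcripts, so only 30 bases around each match are shown. They read 5′ to 3′ on the gene's own strand with the bases of a match to either form in capitals, and the TNF site is repeated for comparison:
TNF (chr6:31575454-31575483, plus strand, looser form): atgagctcatGGGTTTCTCCaccaaggaag
IL32 (chr16:3065294-3065323, plus strand, consensus): cctgtactcaGGGAGTTTCCCcagccagct
IL32 (chr16:3065325-3065354, plus strand, looser form): tcccgagtctGGACTTTCCCtctgcccctc
LTA (chr6:31572176-31572205, plus strand, consensus): ctaagccctgGGGGCTTCCCCgggccccag
LTB (chr6:31582492-31582521, minus strand, consensus): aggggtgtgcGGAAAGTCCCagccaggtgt
IL6 (chr7:22727117-22727146, plus strand, consensus): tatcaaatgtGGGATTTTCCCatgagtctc
IL32 was the gene with 2 separate matches in its window. In IL32, LTA and IL6 matches overlapped by all but 1 base, on the same or the opposite strand, which is why 11 bases are in capitals. A match is a description of these letters and was not a measurement of binding. Within these 250 bases LTA, LTB and IL6 each held the consensus and were at or near the floor in all 12 libraries. IL32 held the consensus and rose, and TNF held only the looser form and rose. Sequence farther away was not searched, and for CSF1, which also rose, none was at hand.

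TNF encodes the ligand itself, made as a membrane protein and released by proteolysis. The gene lies on the plus strand of chromosome 6 (GRCh38, 31575565 to 31578336), in the major histocompatibility complex between LTA and LTB. TNF had 0 counts in all 3 untreated WT libraries, and 2, 0 and 0 counts in the untreated NFKB1 S80A libraries, so that both untreated groups were at the floor. After TNFα it had 26, 14 and 18 counts in WT cells and 62, 44 and 57 counts in NFKB1 S80A cells. All 6 treated libraries were above all 6 untreated ones, and the 3 treated NFKB1 S80A libraries were above the 3 treated WT libraries. RNA came from whole cultures, so that a few cells with much of a transcript and many cells with little cannot be told apart.

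As normalised counts, TNF rose to 19.5 ± 6.77 (SD, n = 3) in WT cells, at least 6.58-fold over the mean floor of 3 counts per library, and the rise passed edgeR's quasi-likelihood test (Benjamini-Hochberg adjusted p = 0.000924). In NFKB1 S80A cells it rose to 56.4 ± 4.64 (n = 3), at least 18.8-fold, with an adjusted p of 2.89e-05 by edgeR. The treated NFKB1 S80A level was 2.89-fold the treated WT level. On the log2 scale this difference was 1.53 ± 0.29 (SE; 95% interval 0.90 to 2.17; adjusted p = 0.00789, edgeR). Without treated WT replicate 1, the WT library with the most TNF counts, the log2 difference was 1.83. Without treated WT replicate 2 it was 1.33 and the adjusted p was 0.0505 (edgeR), and it passed without any other single library.

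IL32 encodes a proinflammatory cytokine of lymphocytes and epithelial cells that can induce TNF in monocytes. The gene lies on the plus strand of chromosome 16 (GRCh38, 3065297 to 3082192), and the upstream sites shown above lie next to the start of a RefSeq transcript. IL32 overlaps an RNA annotated on the opposite strand and a small nuclear RNA on its own, and whether its counts hold reads of these was not tested. IL32 had 1, 1 and 3 counts in untreated WT cells, at the floor, and 1, 0 and 4 counts in untreated NFKB1 S80A cells. It had 12, 16 and 15 counts in treated WT cells and 37, 23 and 31 counts in treated NFKB1 S80A cells. The groups were ordered as for TNF, with no overlap between treated and untreated libraries or between the treated genotypes.

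The normalised IL32 count was 14.3 ± 1.70 (SD, n = 3) in treated WT cells, at least 4.83-fold over the floor, and the fitted log2 change of 3.04 depended on counts near 0 and is no bound (adjusted p = 0.0104, edgeR). In treated NFKB1 S80A cells it was 31.3 ± 3.60 (n = 3) against 1.47 ± 1.80 untreated, a log2 change of 4.17 ± 0.46 (SE; 95% interval 3.19 to 5.16; adjusted p = 0.00011, edgeR). This size too rested on untreated counts near 0, since it was 5.61 without untreated NFKB1 S80A replicate 3 and 3.74 without replicate 2, and the change passed edgeR's test in all 12 fits without 1 library. The treated NFKB1 S80A level was 2.19-fold the treated WT level, a log2 difference of 1.13 ± 0.31 (95% interval 0.47 to 1.78; adjusted p = 0.0396, edgeR). In the WT response the call was lost without untreated WT replicate 1 (adjusted p = 0.0719), untreated WT replicate 2 (0.0954) or treated WT replicate 2 (0.0523), by edgeR in each case.

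The IL32 difference between the treated genotypes kept its size but was near the threshold. Its log2 value stayed between 1.04 and 1.21 when each of the 12 libraries was left out in turn, and it passed edgeR's test in 4 of the 12 fits. It was lost without untreated WT replicate 1 (adjusted p = 0.0547, edgeR) or replicate 2 (0.0572). Leaving out treated WT replicate 1, 2 or 3 gave adjusted p-values of 0.143, 0.113 and 0.0674 in edgeR. Leaving out treated NFKB1 S80A replicate 1, 2 or 3 gave 0.121, 0.0672 and 0.104 in edgeR. With the DESeq2 test the log2 difference was 1.14 and the adjusted p was 0.0677.

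CSF1 encodes macrophage colony-stimulating factor, which controls the survival and growth of macrophages. It lies on the plus strand of chromosome 1 (GRCh38, 109910242 to 109930992) and was the best covered of the 8 genes. Its counts were 119, 134 and 97 in untreated WT cells, 277, 225 and 209 in treated WT cells, 124, 68 and 104 in untreated NFKB1 S80A cells and 402, 190 and 234 in treated NFKB1 S80A cells. Every treated library was above every untreated one of its genotype, while the genotypes overlapped both without and with TNFα.

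Normalised CSF1 counts rose from 114 ± 12.5 to 238 ± 43.7 in WT cells (SD, n = 3 each), 2.08-fold, with a log2 change of 1.05 ± 0.20 (SE; 95% interval 0.64 to 1.47; adjusted p = 0.0168, edgeR). In NFKB1 S80A cells they rose from 95.6 ± 17.2 to 280 ± 73.9, 2.92-fold, with a log2 change of 1.55 ± 0.20 (95% interval 1.12 to 1.97; adjusted p = 0.000473, edgeR). Between the treated genotypes CSF1 differed by a log2 value of 0.24 (95% interval -0.15 to 0.63; adjusted p = 0.492, edgeR). Without treated NFKB1 S80A replicate 1, which had the highest CSF1 level, this log2 value was about 0. The call in WT cells was lost without untreated WT replicate 1 (adjusted p = 0.0535), replicate 2 (0.069) or replicate 3 (0.113), or without treated WT replicate 1 (0.107), each by edgeR.

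LIF encodes leukemia inhibitory factor, a cytokine of the IL6 family that signals through LIFR and IL6ST. It lies on the minus strand of chromosome 22 (GRCh38, 30240453 to 30246759) and overlaps 2 annotated antisense RNAs, and whether the counting used strand is not given in the sources used here. LIF had 20, 15 and 13 counts in untreated WT cells, 26, 18 and 13 in treated WT cells, 49, 16 and 29 in untreated NFKB1 S80A cells and 72, 16 and 13 in treated NFKB1 S80A cells. It was well above the floor in every library, and its groups overlapped in all 4 comparisons. Replicate 1 of both NFKB1 S80A groups was the highest library of its group.

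LIF passed no test. Its log2 change with TNFα was 0.27 in WT cells (95% interval -0.96 to 1.50; adjusted p = 0.997, edgeR) and 0.16 in NFKB1 S80A cells (95% interval -0.86 to 1.17; adjusted p = 0.940, edgeR). The log2 difference between the genotypes was 0.94 without TNFα (95% interval -0.19 to 2.08; adjusted p = 0.356, edgeR) and 0.83 with it (95% interval -0.27 to 1.92; adjusted p = 0.374, edgeR). Without treated NFKB1 S80A replicate 1 the latter was -0.22, and the log2 change with TNFα in NFKB1 S80A cells was -0.89 in place of 0.16 (adjusted p = 0.617, edgeR). In WT cells the LIF interval with TNFα included the log2 rise of 1.05 measured for CSF1, so that a rise of that size was not excluded. In NFKB1 S80A cells its upper end of 1.17 was under the 1.55 measured for CSF1, but the LIF value there depended on replicate 1.

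The other 4 genes gave few reads. LTB, which encodes the membrane anchor of the lymphotoxin heterotrimer, lies on the minus strand of chromosome 6 (GRCh38, 31580525 to 31582522). It had 0, 4 and 2 counts in untreated WT cells, 2, 1 and 2 in treated WT cells, 0, 2 and 0 in untreated NFKB1 S80A cells and 7, 1 and 4 in treated NFKB1 S80A cells. The highest count was in a treated NFKB1 S80A library, the next highest was shared by a treated NFKB1 S80A and an untreated WT library, and the groups overlapped. LTA, the gene of the soluble lymphotoxin (chromosome 6, plus strand, 31572054 to 31574324), had 8 counts in all libraries together and at most 2 in any. IL6, the gene of a major inducer of the acute-phase response (chromosome 7, plus strand, 22725884 to 22732002), had 3 counts in all, none of them in NFKB1 S80A cells. IL1B, the gene of a pyrogenic cytokine that caspase-1 cleaves (chromosome 2, minus strand, 112829751 to 112836816), had 2 counts in all, each in a different treated library. LTA and IL6 overlap genes annotated on the opposite strand, so that these few reads may not all be theirs.

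In a fit without the filter on low counts (22051 genes), none of these 4 genes passed in any comparison. In that fit the TNFα response was called higher for 0.444% of all genes in WT and for 0.712% in NFKB1 S80A cells. Between the genotypes, 1.5% of genes were called higher in the edited cells without TNFα and 1.85% with it. The smallest p-value among the 4 was for LTB with TNFα in NFKB1 S80A cells, with a log2 value of 2.42 ± 1.05 (SE), an unadjusted p of 0.0273 and an adjusted p of 0.524 by edgeR. Of the 3 genes below detection, a level under the floor could not be told from 0.

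Set side by side, the TNFα response was called higher for 3 of the 4 tested genes (TNF, IL32 and CSF1) in WT cells, where 0.577% of all tested genes were called higher, and for the same 3 in NFKB1 S80A cells, where 0.966% were. In untreated cells none of the 4 was called higher in the edited cells, and 2.05% of all genes were. None among 4 is near that share and is no result about these genes. TNF and IL32 were also at or near the floor in both untreated groups. In treated cells 2 of the 4 were called higher in NFKB1 S80A cells (TNF and IL32), against 2.92% of all genes. TNF and IL32 could pass the filter only through their treated libraries, so that the count of called genes among the tested 4 is a description of them. The share of all genes whose groups do not overlap was not taken, and the separations between groups given here are likewise a description.

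**Figure D2:**
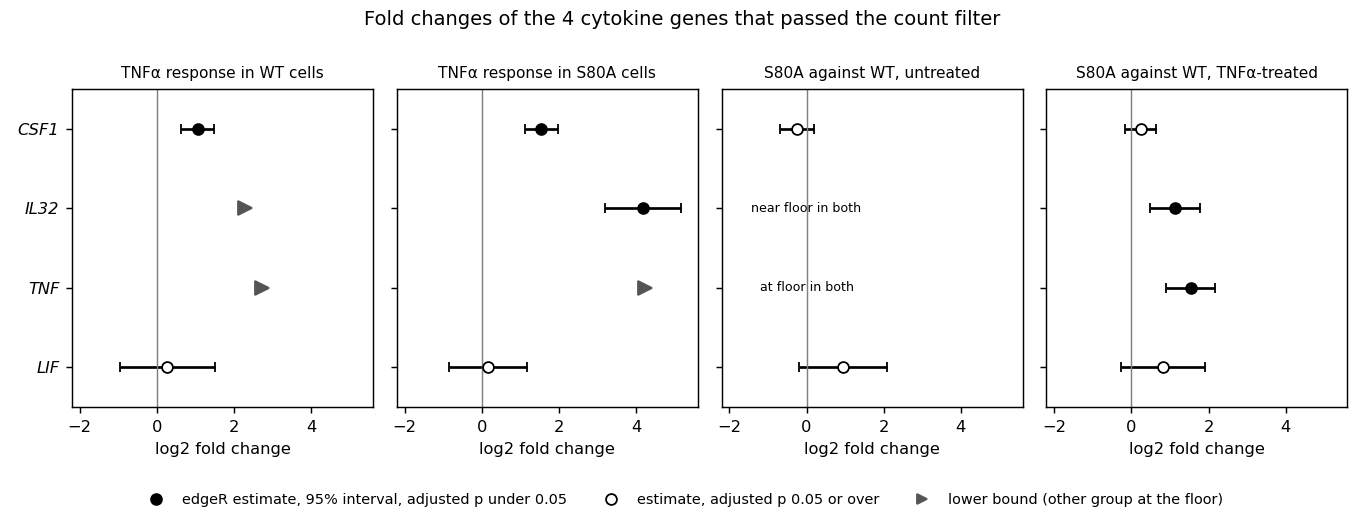
Log2 fold changes (x axis) of the 4 tested cytokine genes in the 4 comparisons (panels). Circles are edgeR estimates with 95% intervals, filled where the adjusted p was under 0.05, and triangles are lower bounds where the untreated group was at the floor. Between treated genotypes the intervals of TNF (0.90 to 2.17) and IL32 (0.47 to 1.78) lie above 0 and those of CSF1 and LIF include 0.

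Whether the response to TNFα itself differed between the genotypes was tested by the interaction of genotype and treatment, which called 0 of the 14383 genes by edgeR (0% of genes, with 520 at an unadjusted p under 0.05). The interaction of CSF1, the gene with measurable untreated levels in both genotypes and a response in each, was 0.49 on the log2 scale (95% interval -0.10 to 1.09; unadjusted p = 0.0981; adjusted p = 0.911, edgeR). For IL32 the fitted interaction ranged from 0.44 to 2.57 when 1 library was left out (without untreated WT replicate 3 and untreated NFKB1 S80A replicate 3), around 1.14 with all 12 (95% interval -0.88 to 3.15; adjusted p = 0.911, edgeR). No interaction could be read for TNF, whose untreated groups were both at the floor, or for IL32, whose untreated groups were at or near it. For TNF and IL32 a higher treated level in NFKB1 S80A cells was therefore measured, and a larger fold response was not.

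Levels can be compared between genes only per length, here as normalised counts per kilobase of annotated exon. The length of a gene was that of all its GENCODE exons together. Which transcripts were expressed was not tested, so that the order of genes and the ratios between them depend on these lengths. In treated WT cells CSF1 had the highest level, 45.5 ± 8.34 per kb (SD, n = 3), followed by TNF at 11.6 ± 4.04, LIF at 4.95 ± 1.87 and IL32 at 4.46 ± 0.53. The LIF and IL32 levels overlapped, and the others in that order did not. In treated NFKB1 S80A cells the order was CSF1 at 53.4 ± 14.1, TNF at 33.6 ± 2.76, IL32 at 9.75 ± 1.12 and LIF at 8.43 ± 7.29, and again IL32 and LIF were the neighbours that overlapped. The LIF levels there were 16.8, 4.88 and 3.60 per kb, so that its mean rested on replicate 1. Without TNFα CSF1 stood at 21.8 per kb in WT and 18.3 in NFKB1 S80A cells and LIF at 4.09 and 7.73, while TNF and IL32 were near or at the floor.

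The ratio of TNF to CSF1 per kb within a library does not depend on the scaling between libraries. It was 0.293, 0.194 and 0.269 in the treated WT libraries and 0.481, 0.723 and 0.760 in the treated NFKB1 S80A libraries. The ratio of IL32 to CSF1 had a mean of 0.101 in WT and 0.188 in NFKB1 S80A cells, and both ratios were higher in every NFKB1 S80A library than in any WT library. The ratio of TNF to IL32 had a mean of 2.70 in WT and 3.46 in NFKB1 S80A cells and overlapped. TNF and IL32 thus stood higher relative to CSF1 in the treated NFKB1 S80A libraries, and not clearly so relative to each other.

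**Figure D3:**
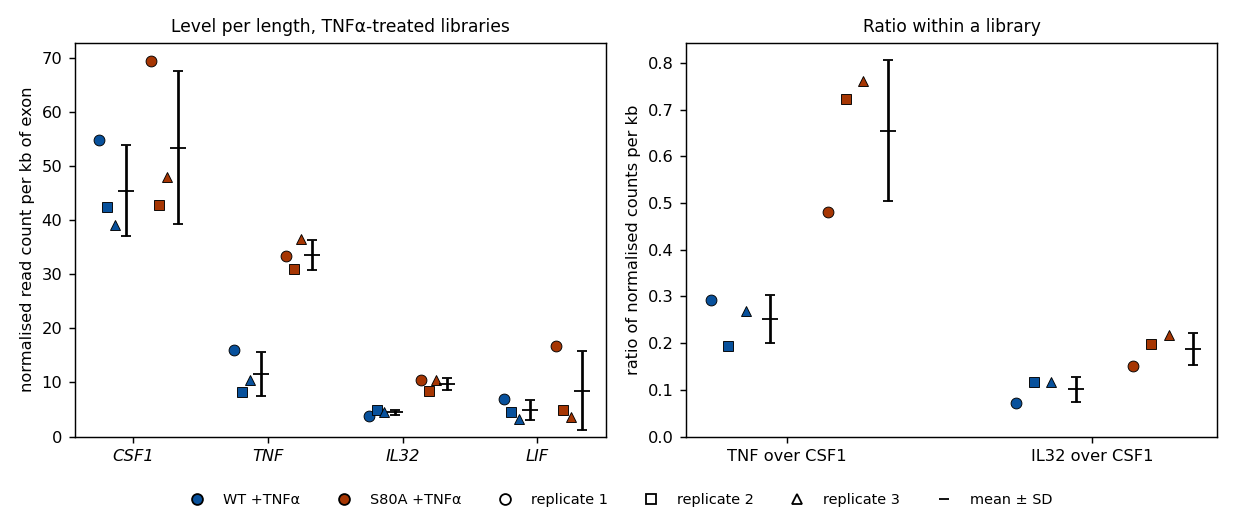
Left, normalised counts per kb of exon (y axis) of CSF1, TNF, IL32 and LIF in the TNFα-treated libraries. Right, the ratio of TNF and of IL32 to CSF1 per kb within each library; points are libraries and bars are means with SD (n = 3). CSF1 overlapped between genotypes, whereas the ratio of TNF to CSF1 was at most 0.293 in WT and at least 0.481 in NFKB1 S80A cells.

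The gene neighbours of the tested cytokines were also read. Distances are between RefSeq gene bounds, and RefSeq ends IL32 at 3069530, before the GENCODE end given above. TNF lies 1240 bp from LTA on one side and 2221 bp from LTB on the other, and both neighbours stayed at or near the floor in treated libraries in which TNF had up to 62 counts. The nearest coding neighbour of IL32 in the RefSeq table, the matrix metalloprotease gene MMP25, lies 4676 bp away and had 16 to 43 counts per library, and ZSCAN10, 19359 bp away on the other side, had at most 3. The log2 change of MMP25 with TNFα was 0.77 ± 0.26 in WT cells (adjusted p = 0.458, edgeR) and -0.05 ± 0.25 in NFKB1 S80A cells (adjusted p = 0.966, edgeR). AHCYL1, 53772 bp from CSF1, was strongly transcribed and had a log2 change of 0.05 in WT cells (adjusted p = 0.997, edgeR), and EPS8L3 on the other side had 0 counts. OSM, another IL6-family cytokine gene 16069 bp from LIF, had at most 2 counts in any library, and HORMAD2 on the other side at most 1.

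The wider set of cytokine genes was mostly silent. Of 74 further genes of these pathways (other TNF superfamily ligands, interleukins and interferons, colony-stimulating and IL6-family factors, receptors, and processing enzymes and antagonists), 39 had at most 3 counts in every library and 24 were tested. Among other TNF superfamily ligands 9 of 15 stayed within 3 counts, among interleukins and interferons 21 of 29, and among colony-stimulating and IL6-family factors 4 of 10. Of the 5, 4 and 3 tested genes of these groups, none was called in any comparison. Over all tested genes, 0.688% to 7.36% were called in either direction in the 4 comparisons, so that none among so few is near that share. IFNB1, IFNG, CSF2 and FASLG had 0 counts in all libraries, and the transcribed ligands included EDA, TNFSF9 and KITLG.

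Of the 10 receptor genes 6 were tested. TNFRSF1A, which encodes TNFR1, had a mean normalised count of 579 ± 45.0 and 582 ± 26.6 in untreated and treated WT cells and 664 ± 155 and 664 ± 131 in NFKB1 S80A cells, and passed no test. TNFRSF1B, the second TNF receptor, reached 7 counts, CSF1R, the receptor of CSF1, reached 6, and LTBR, the receptor of the lymphotoxin heterotrimer, had at most 1. IL6ST, the signal-transducing chain shared by IL6 and LIF, rose in WT cells from 1081 ± 78.7 to 1880 ± 339, a log2 change of 0.80 ± 0.15 (adjusted p = 0.0177, edgeR). In NFKB1 S80A cells it went from 1175 ± 143 to 1722 ± 319, a log2 value of 0.55 ± 0.15 that missed the threshold (adjusted p = 0.128, edgeR). The interaction of IL6ST was -0.25 ± 0.21 (adjusted p = 0.911, edgeR), so that a difference between the genotypes was not shown.

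Of the 10 genes for processing and antagonists 6 were tested. ADAM17, the protease that sheds TNF from the cell surface, had mean normalised counts of 617 to 712 in the 4 groups and passed no test. RHBDF1, an inactive rhomboid that helps ADAM17 mature, had normalised counts of 109, 112 and 94.9 in untreated WT cells and 74.1, 64.9 and 73.8 in untreated NFKB1 S80A cells. It was lower in untreated NFKB1 S80A cells by a log2 value of -0.56 ± 0.13 (adjusted p = 0.0223, edgeR). With TNFα it reached 131 ± 12.9 in WT cells, a log2 change of 0.31 ± 0.13 (adjusted p = 0.688, edgeR), and 128 ± 4.13 in NFKB1 S80A cells, where it rose by 0.85 ± 0.13 (adjusted p = 0.00286, edgeR). The treated genotypes then differed by -0.03 on the log2 scale (adjusted p = 0.937, edgeR), and the interaction was 0.54 ± 0.18 (adjusted p = 0.911, edgeR). CASP1 and PYCARD, needed to cleave IL1B, had at most 1 count, NLRP3 at most 2, and IL1RN, the IL1 receptor antagonist, had 0.

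The genes whose log2 level was most like that of each cytokine over the 12 libraries were read by Pearson's r as a description, among about 13060 genes with a mean of at least 1 CPM. The 12 points share libraries and treatment groups, and any gene that rises with TNFα will score high. Nearest to TNF were EFNA1 (r = 0.987), the chemokine CXCL2 (0.986), the AP-1 subunit JUNB (0.985), the chemokine IL8 (0.981) and SDC4 (0.980). Nearest to IL32 were SIX5 (0.985), JUNB (0.977), ZBTB5 (0.967), DUSP8 (0.967) and TNFAIP3 (0.965), a feedback inhibitor of NF-κB. Nearest to CSF1 were ANKRD33B (0.976), TNFRSF9 (0.976), PANX1 (0.969), NFKB1 itself (0.967) and PTX3 (0.963). JUNB was thus in the list of both TNF and IL32.

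LIF had other genes nearest to it. They were CLIC5 (r = 0.938), ACTR8 (0.936), LINC00893 (0.928), SLC35B4 (0.928) and NIPAL2 (0.927), whose log2 changes with TNFα ranged from -0.16 to 0.20. The normalised LIF count was 45.4 and 65.1 in replicate 1 of untreated and treated NFKB1 S80A cells, and at most 27.0 in any other library. How far these matches rest on those libraries was not tested. Among the tested cytokines themselves r was 0.950 for TNF and IL32, 0.938 for TNF and CSF1 and 0.900 for IL32 and CSF1, and from 0.0917 to 0.263 for LIF with each of the others. NFKB1, the edited gene, had 1054, 1117 and 919 counts in untreated WT cells, 2447, 2327 and 2562 in treated WT cells, 1121, 718 and 1144 in untreated NFKB1 S80A cells and 3537, 2376 and 2372 in treated NFKB1 S80A cells. It rose with TNFα by a log2 value of 1.27 in WT cells (adjusted p = 4.99e-06, edgeR) and 1.56 in NFKB1 S80A cells (adjusted p = 3.19e-07, edgeR), and these counts do not check the edit, which changes single bases.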

How the data were processed

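RNA was sequenced from the 12 HEK293T samples as single-end 75 bp reads of poly(A)-selected, stranded libraries. The authors aligned reads to GRCh38 with HISAT, used HTSeq-count for counting, and the deposited values are raw counts for each gene symbol. StringTie, FastQC and DESeq2 are also named in the submitters' processing notes, and versions and the strand option are not given in the sources used here. The authors' lists of differentially expressed genes (fold changes, p-values and normalised signal) were not used. All 12 columns matched 1 sample each by name, and 0 other columns held per-sample values. One description label, of treated WT replicate 3, repeats that of replicate 2, but their counts differed like those of other replicate pairs. Of 33121 rows, 28 were left out because 2 of the 12 count columns held entries there that were not whole numbers. In each unaffected column these rows made up at most 0.233% of the counts, and no share was taken for the 2 affected libraries.

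From these counts, edgeR 4.0.16 (R 4.3.3) tested the 14383 genes left by filterByExpr at a minimum count of 10, with TMM scaling and a quasi-likelihood fit over all 12 libraries that had 1 mean per group. P-values were adjusted over all genes by the Benjamini-Hochberg method (threshold 0.05), and they measure the spread between these replicates. The standard error is the log2 fold change divided by the square root of F. For normalised counts, each library was scaled to the mean TMM-adjusted library size. Lengths and gene positions came from GENCODE 44, and distances between neighbouring genes from RefSeq. Log2 levels used a prior count of 2. Tables were made in Python 3.11.15 with numpy 2.4.6 and pandas 2.3.3. On counts simulated for the TNFα response in WT cells, with 100 genes changed by a log2 value of 1 and 100 by 2, 87% and 100% were recovered and 5.08% of calls were false. Whether these shares hold for the tested cytokine genes, with their own levels and spread, was not tested. Alternatives were the DESeq2 1.42.0 test, other scalings and filters, a replicate block, fits restricted to the samples of a comparison, another limit of detection and leaving out each library.

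The 8 genes and all lists were chosen with earlier results of these data known. Named are the 8 genes, pathway-list genes called in a comparison, the 5 genes nearest in pattern to each, the neighbouring genes and NFKB1. Other list genes, among them those at or near the floor, EDA, TNFSF9, KITLG, TNFRSF1A, ADAM17 and NEFM, were named after their values were seen.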

Additional observations from a re-analysis of the deposited data

How the results depend on the processing

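The number of the 4 tested cytokine genes called with TNFα in WT cells was 3, and 1 under a filter of at least 10 counts in every library, which drops TNF and IL32. That filter gave 1 in place of 3 with TNFα in NFKB1 S80A cells, and 0 in place of 2 between the treated genotypes, where the DESeq2 test gave 1. Leaving out 1 library gave 1 to 3 in WT cells and 0 to 2 between the treated genotypes. Over all genes, 99 were called with TNFα in WT cells and 158 with the DESeq2 test, with 65 to 145 when 1 library was left out. In NFKB1 S80A cells 181 were called, 71 in a fit to only the samples compared and 98 to 193 without 1 library. Between untreated genotypes 900 were called, 456 in a fit to only the samples compared and 356 to 1039 without 1 library. Between treated genotypes 1058 were called, and 434 to 1646 without 1 library. No change of direction was found for a called result. The cause of these changes was not tested, apart from the filter.

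Same-numbered replicates did not deviate together in every pair of groups (r from -0.099 to 0.495 over 18 pairs, mean 0.118). Replicates of different number had r from -0.438 to 0.445 over 36 pairs, with a lower mean of -0.059. The number was not treated as pairing in the main fit, and whether same-numbered libraries shared a batch was not tested. With the replicate block the calls of cytokine genes were 3, 3, 0 and 2 in the 4 comparisons, as without it, and those over all genes 113, 208, 1232 and 1469.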
